A study of Mus musculus with 12 samples.

Results

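The response of healthy young hair follicle stem cells to plucking was described in 4 of the 12 arrays of the series, which form 2 pairs. Each pair holds hair follicle stem cells (HFSCs) of unplucked skin and HFSCs of skin that was depilated by hand 3 days earlier. The members were chosen by their labels alone: the plucked minus the unplucked young array, and the plucked minus the unplucked control array. In both pairs most genes listed for mitosis, DNA replication and DNA repair were at least 2-fold higher after plucking, and 15 of 26 genes for secreted and surface proteins of the resting bulge were at least 2-fold lower. Of 14 bulge transcription factors, 1 was higher and 1 lower in both pairs, shares near those of all measured genes (6.97% and 4.22%). Of 8 BMP targets 5 were lower, a count that falls to 2 without 1 of the unplucked arrays.

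All 4 samples came from wild-type C57BL/6 mice. Young mice were 8 weeks old and untreated. Control mice were 12 weeks old and had received tamoxifen, 2 mg per mouse by intraperitoneal injection for 5 days, both for the unplucked and for the plucked sample. Cells were sorted as high for CD34, high for ITGA6 and negative for SCA1, and nanogram amounts of total RNA were amplified before labelling. The rest of the series holds HFSCs of aged mice (at least 22 months) and of tamoxifen-treated Col17a1 conditional knockout (cKO) mice, also unplucked and plucked, and total and interfollicular epidermis. Each group is 1 array, and nothing in the labels says whether the plucked and unplucked cells of a pair came from separate animals or from pools.

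Hair follicles cycle between rest (telogen), growth (anagen) and regression. HFSCs lie in the bulge of the resting follicle, where BMP signalling and FGF18 keep them quiescent, and they divide for a short time when a new growth phase begins. Pulling out the club hair of a resting follicle is a classical way to start a growth phase in all follicles of an area at the same time. Bulge cells are known for surface CD34, for keratins 15 and 24, and for a set of transcription factors that includes SOX9, LHX2, TBX1 and NFATC1.

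Values are levels, log2 of the processed spot intensity minus the 75th percentile of the array, and differences are plucked minus unplucked on this log2 scale. The young pair is given before the control pair throughout. Between 56.08% and 64.23% of the spots on the 4 arrays were well above background, the scanner software's criterion for a measured signal. The unplucked control array stood apart: 486 genes lay there at least 8-fold below all of the other 3 arrays, against 24, 5 and 23 genes on the unplucked young, plucked young and plucked control arrays. Over 18824 genes well above background on all 4 arrays, the 2 plucked arrays were the most alike (r = 0.963, across genes, with 14.6% of genes at least 2-fold apart), and the 2 unplucked arrays had r = 0.910 with 30.4% at least 2-fold apart. The young pair shares a slide and scan with the aged arrays, and the control pair shares another slide and scan with the cKO arrays. Between the 2 healthy pairs, pair, slide, scan, age and tamoxifen thus cannot be told apart. Results are therefore given for each pair and, for most gene lists, also with both plucked arrays set against the unplucked young array alone.

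The sorted cells carried the positive markers of HFSCs. Cd34, Itga6, Krt15, Lhx2, Sox9 and Lgr5 were well above background on all 4 arrays, and the basal keratins Krt5 and Krt14 had levels of 7.94 to 8.83. Ly6a, which encodes SCA1, had levels of 0.30 and -3.15 in unplucked and -2.05 and -2.95 in plucked cells. On the unplucked young array it thus lay above the 75th percentile, although the cells were sorted as negative for SCA1. In the marker lists of other cell types, Pdgfra, Pdgfrb and Lum (fibroblast), Cdh5 (endothelium), Cd2 (T cell), Lyz2 (myeloid) and Tyrp1 (melanocyte) were well above background on none of the 4 arrays. Other members of the same lists were: per array 5 to 7 of 9 melanocyte, 4 to 6 of 7 T cell, 7 to 9 of 11 myeloid, 2 to 6 of 12 fibroblast and 5 to 6 of 10 endothelial markers. So were 1 to 3 of 8 neutrophil and 2 to 4 of 6 Merkel and nerve markers. The summed signal of 9 melanocyte markers, in multiples of the 75th percentile signal, was 4.43 and 6.00 in unplucked and 1.78 and 2.11 in plucked cells, and 1 of the 6 measured in both pairs was at least 2-fold lower in both, Mitf (1.72 and 2.15 against -1.28 and -0.71). That of 12 fibroblast markers was 9.38 and 4.63 against 2.92 and 2.63, with Col1a2 lower in both pairs. The summed signal of 11 myeloid markers was 186 and 357 in unplucked and 221 and 208 in plucked cells, most of it from Itgam and Csf1r. For T cell markers it was 2.72 and 2.11 against 2.00 and 1.21, and for endothelial markers 9.13 and 6.32 against 5.86 and 5.11. For neutrophil markers it was 117 and 198 against 140 and 125, and for Merkel and nerve markers 18.2 and 23.5 against 20.2 and 13.2. The part of these markers in the results was not tested. Fewer cells of a kind and less RNA per cell cannot be told apart in such samples.

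A gene was called higher or lower in both pairs when it was at least 2-fold apart in the same direction in both, with the brighter array of each pair well above background. This is a description with 1 array on each side. Of 22521 genes that could be measured in both pairs, 1570 (6.97%) were higher and 951 (4.22%) were lower after plucking in both. Counts in every gene list below are to be read against these shares. With both plucked arrays set against the unplucked young array alone, 1954 of 22697 genes were higher on both and 1762 lower. List counts given without the unplucked control array are to be read against those numbers instead. Alone, the young pair had 3569 genes higher (15%) and 2636 lower (11.1%) of 23715, and the control pair 5352 higher (21.2%) and 5144 lower (20.3%) of 25294. Counted among the 22521 genes alone, 3108 were higher in the young and 4791 in the control pair, and the shared genes made up 50.5% and 32.8% of these. Likewise 2251 and 3957 were lower, with shared genes at 42.2% and 24%. The differences of the 2 pairs had r = 0.365 across all genes measured and the same sign in 61.9% of them.

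The shared differences were larger upwards than downwards. At 8-fold or more in both pairs there were 220 genes higher and 50 lower, and at 32-fold or more 36 higher and 1 lower. Many of the higher genes came up from background: 716 genes were well above background on both plucked arrays and on neither unplucked array, against 111 the other way. With both plucked arrays set against the unplucked young array alone, 1257 of the 1570 higher genes (80.1%) and 737 of the 951 lower genes (77.5%) were at least 2-fold apart on both. The young side of this comparison is the one the genes were chosen on, and the other side shares its unplucked array, so these shares are a description and no sign of stability. The median difference of all genes was 0.0007 in the young and -0.14 in the control pair, and -0.08 and -0.27 with arrays centred on their medians, so differences below are to be read against a shift of this size.

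**Figure D1:**
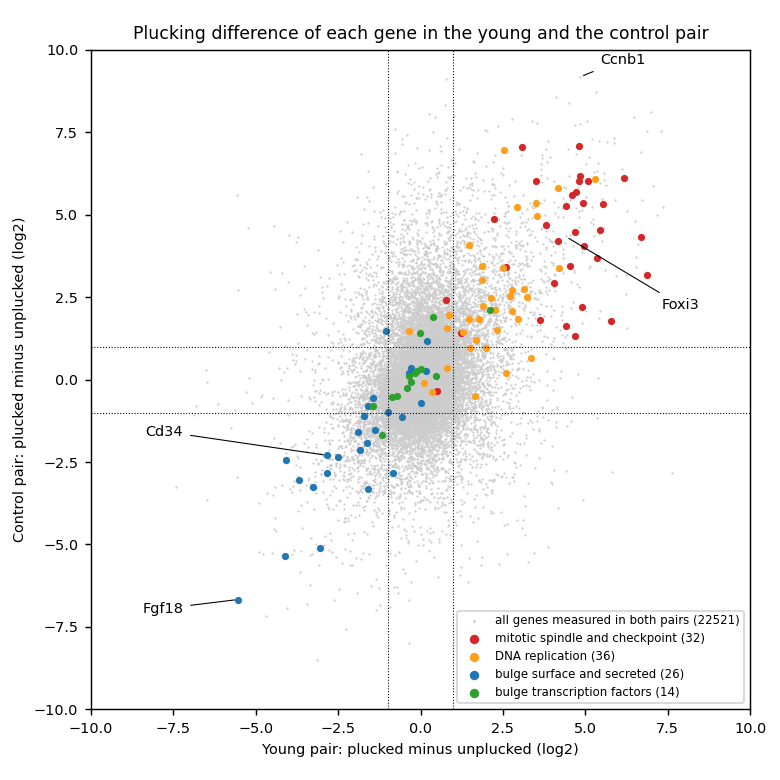
Plucking difference of each of the 22521 genes measured in both pairs, with the young pair on the horizontal and the control pair on the vertical axis, both log2 plucked minus unplucked; dotted lines mark a 2-fold difference and coloured points mark 4 gene lists. Mitotic and replication genes lie at the upper right, bulge surface and secreted genes at the lower left, and most bulge transcription factors near the centre.

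No gene passed a replicated test. In the fit of limma to the 8 HFSC arrays, with mouse type and a plucking term for the healthy pairs separate from that of the aged and cKO pairs, 0 of 25426 genes reached an adjusted p under 0.05 (0%). The smallest adjusted p was 0.234, and 2697 genes had an unadjusted p under 0.05, 1628 of them higher (6.4%) and 1069 lower (4.2%). This fit has 2 residual degrees of freedom. With a single plucking term shared by all 4 pairs, which also draws on the aged and cKO arrays, limma called 127 genes (0.499%), 100 higher and 27 lower.

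Genes of mitosis had the largest shared differences. Of 32 genes of the spindle, kinetochore and checkpoint, 30 were at least 2-fold higher in both pairs and 0 lower, with a median difference of 4.68 in the young and 4.40 in the control pair. With both plucked arrays against the unplucked young array alone the count was 29. Only 21 and 23 of the 32 were well above background in unplucked cells, whereas all 32 were in plucked cells, so that with the dim side set at its background limit the medians were 4.41 and 4.27. After normexp background correction and quantile scaling, which draws dim values together, they were 2.96 and 2.44. The members that did not pass were Mad2l1 (differences 0.78 and 2.43) and Hmmr (0.51 and -0.34).

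Ect2, the exchange factor that activates RhoA for cytokinesis, ranked first among named genes measured on all 4 arrays, with clones and predicted genes left out. The ranking is by the smaller of the 2 pair differences, and Ect2 was not first by their mean. Its level was -1.64 and -1.72 in unplucked and 3.29 and 3.65 in plucked cells. The plucked arrays thus lay far above both unplucked ones, and the mean difference was 5.15 ± 0.74 (SE, n = 2 pairs; limma adjusted p = 0.243). Spc25, a subunit of the NDC80 kinetochore complex, went from -1.02 to 3.81 and from -2.54 to 3.62 (mean 5.49 ± 0.59 SE, limma adjusted p = 0.234). Ube2c, the ubiquitin-conjugating enzyme of the anaphase-promoting complex, stood at -0.21 and -3.16 without and 4.52 and 3.70 with plucking. In each of these genes the 2 plucked arrays were within 1 log2 unit of each other and above both unplucked arrays, and in Ube2c and Spc25 the unplucked arrays lay further apart than the plucked ones.

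Aurka, the centrosomal kinase of spindle assembly, showed nearly the same difference in both pairs: -2.05 to 2.64 in the young and -1.98 to 2.50 in the control pair. Cdc20, the activator of the anaphase-promoting complex, went from -1.05 to 3.1 and from 0.04 to 4.26. Mki67, the proliferation antigen Ki-67, was already measurable in unplucked cells, at 0.45 and 2.15, and stood at 5.10 and 5.41 after plucking (limma adjusted p = 0.257, and 0.0449 with 1 plucking term for 4 pairs). The 12 genes with the largest shared higher values by the fixed rule, all well above background on all 4 arrays, were Ect2, Spc25, Chst2, Ube2c, Kif20a, Kif22, Spc24, Ccna2, Aurka, Ndc80, Foxi3 and Ccnb2. Of these, 10 are genes of cell division.

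**Figure D2:**
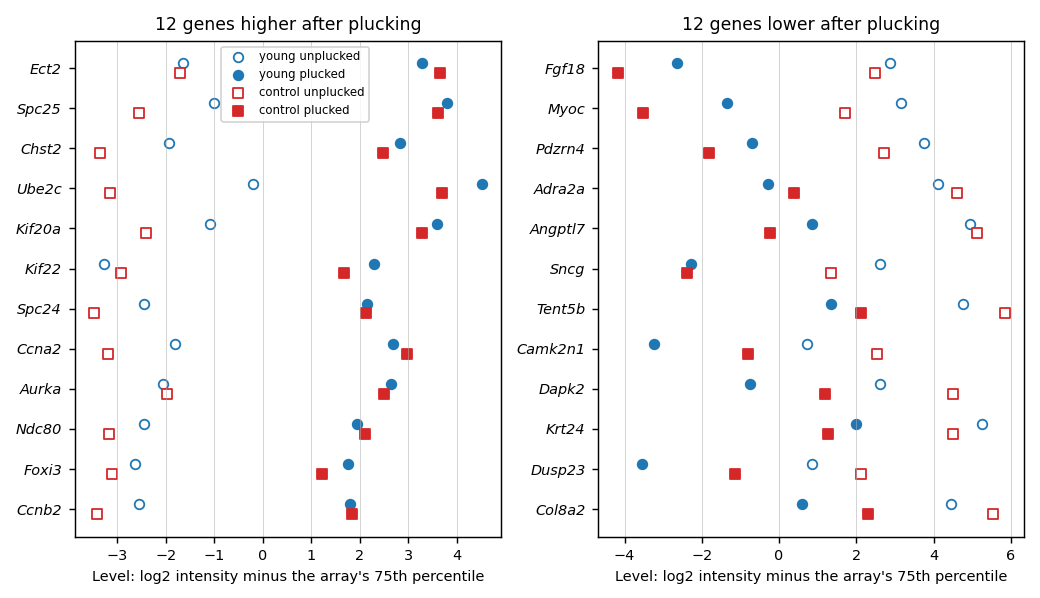
Level of the 12 genes with the largest shared higher values (left) and the 12 with the largest shared lower values (right), log2 intensity minus the array's 75th percentile; circles are the young and squares the control pair, open symbols unplucked and filled symbols plucked. In every gene shown the 2 filled symbols lie on the same side of both open symbols.

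The promoters of mitotic genes are known for a CCAAT box, bound by NF-Y, and a cell-cycle homology region with the core TTTGAA, through which the MuvB complexes repress them in quiescent cells. RefSeq promoters (GRCm38.p6, 250 bases before to 50 after each start) were at hand for 27 of the 32 mitotic genes, as 30 promoters. CCAAT occurred on either strand in 70% of these, against 37.4% of the 14806 promoters of all measured genes, and TTTGAA in 80%, against 12.7%. Both motifs together were found in 63.3% of the mitotic promoters, in 10.9% of those of all genes higher in both pairs, in 25.5% of those of genes at least 8-fold higher, in 2.8% of those of genes lower in both pairs, and in 5.27% of all. Most of the mitotic promoters with TTTGAA held it only at or after the start. In the 250 bases before it, TTTGAA was in 26.7% of mitotic and 11.3% of all promoters, and both motifs were in 23.3% and 4.22%. The median GC content was 59% and 59.7% over the whole window. The shared final T of CCAAT and first T of TTTGAA is the most the motifs can overlap, and a match is a description of letters, not of binding.

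Of mitotic and cyclin genes that were higher in both pairs, 11 carried both motifs within the 150 bases before a start. The 5 of these with the largest shared differences are printed. They were picked for holding both motifs there, which most mitotic promoters do not. Sequences run 5′ to 3′ on the strand of the gene, with each CCAAT or TTTGAA, or its reverse complement ATTGG or TTCAAA, in capitals.
E2f8 (chr7:48881597-48881746, minus strand): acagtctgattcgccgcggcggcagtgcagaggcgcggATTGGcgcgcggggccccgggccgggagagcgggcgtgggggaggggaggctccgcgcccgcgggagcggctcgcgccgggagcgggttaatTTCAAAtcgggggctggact
Ect2 (chr3:27153855-27154004, minus strand): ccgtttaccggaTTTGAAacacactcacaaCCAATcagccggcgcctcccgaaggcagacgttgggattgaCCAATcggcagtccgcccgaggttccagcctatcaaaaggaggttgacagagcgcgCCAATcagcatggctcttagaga
Cdc20 (chr4:118437344-118437493, minus strand): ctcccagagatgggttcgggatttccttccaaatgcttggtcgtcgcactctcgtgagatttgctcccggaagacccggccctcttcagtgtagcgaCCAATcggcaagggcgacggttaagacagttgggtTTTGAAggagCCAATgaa
Prc1 (chr7:80294326-80294475, plus strand): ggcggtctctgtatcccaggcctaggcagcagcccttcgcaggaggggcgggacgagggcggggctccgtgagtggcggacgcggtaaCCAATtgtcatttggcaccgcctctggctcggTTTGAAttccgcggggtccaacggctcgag
Mki67 (chr7:135716380-135716529, minus strand): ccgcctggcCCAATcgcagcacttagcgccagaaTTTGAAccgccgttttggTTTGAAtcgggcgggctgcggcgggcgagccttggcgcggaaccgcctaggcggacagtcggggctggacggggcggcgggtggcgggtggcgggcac
Ect2 and Cdc20 hold more than 1 CCAAT box in this stretch, and Mki67 holds TTTGAA in 2 places.

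Genes of DNA replication were higher to a smaller degree and were measurable in resting cells too. Of 36 genes, 25 were higher in both pairs and 0 lower, with medians of 2.21 and 2.10, and 31 of the 36 were well above background on all 4 arrays. With both plucked arrays against the unplucked young array alone, 29 were higher. Pcna, the sliding clamp of the replicative polymerases, went from 2.89 to 5.04 and from 2.39 to 4.86. Mcm6, a subunit of the replicative helicase, went from 4.65 to 6.41 and from 4.68 to 6.52. Both genes were thus present in unplucked HFSCs, with plucked arrays clearly above the unplucked.

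Of the measured Mcm subunits of the helicase ring, Mcm2, Mcm3, Mcm4, Mcm6 and Mcm7 passed 2-fold in both pairs, and Mcm5 differed by 3.35 in the young and 0.67 in the control pair. The licensing factors Cdc6 (differences 3.49 and 5.37) and Cdt1 (1.87 and 3.45) were higher, as were Orc1 and Mcm10, which were not well above background on either unplucked array. Uhrf1, which brings maintenance DNA methylation to replicated DNA, had levels of 2.18 and 1.58 without and 5.71 and 6.56 with plucking (mean 4.26 ± 0.50 SE, limma adjusted p = 0.234). Gins3 (0.10 and -0.11) and Prim2 (0.35 and -0.37) were among the replication genes that differed little. In the promoters of replication genes the E2F-type motifs TTTGGCGC and TTCCCGCC were each found in 17.6% (34 promoters), against 0.851% and 3.61% of all promoters, and in none of the 30 mitotic promoters.

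Among cyclins, CDKs and E2F factors, 17 of 28 were higher in both pairs and 0 lower, with medians of 1.76 and 1.90, and of 1.05 and 1.38 with normexp and quantile scaling. The cyclins of S phase and mitosis were among the 17: Ccna2 went from -1.81 to 2.68 and from -3.20 to 2.97, and Ccnb2 from -2.55 to 1.79 and from -3.43 to 1.83. Ccnb1 went from -2.42 to 2.43 in the young pair. In the control pair it was not well above background without plucking and stood at 2.84 with it, at least 7.91 higher on the log2 scale.

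The D cyclins, which link growth signals to the entry into the cycle, did not pass 2-fold in both pairs. Ccnd1 had levels of 3.55 and 2.59 without and 3.67 and 3.51 with plucking, Ccnd2 differed by 0.20 and 0.56, and Ccnd3 by -0.58 and -0.19. Ccne1, a cyclin of the G1 to S transition, differed by 0.38 and 0.59. Foxm1, a transcription factor of mitotic genes, differed by at least 5.63 in the young pair and by 5.45 in the control pair. E2f8, an atypical E2F repressor of the late cycle, was not well above background without plucking and at 1.53 and 1.26 with it. Its differences were at least 5.22 and 6.32, or 54.6-fold on average over the 2 pairs.

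Of 16 CDK inhibitors and genes linked to quiescence, 1 was higher and 4 were lower in both pairs, and 2 and 2 without the unplucked control array. Cdkn2c, the INK4 inhibitor p18, was higher, from 1.11 to 3.23 and from 2.22 to 4.65. Cdkn1c, the inhibitor p57, was at -2.30 and -0.34 in unplucked cells and not well above background on either plucked array. Txnip (differences -2.18 and -2.65), a thioredoxin-binding arrestin, and Klf9 (-1.13 and -2.23) were lower too. Btg1 was lower (-1.14 and -1.29) by its brightest probe, but its mean over probes differed by 0.36. Cdkn1b, the inhibitor p27, differed by 0.05 and -0.60, and Cdkn1a, the inhibitor p21, by 0.99 and 1.91.

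Genes of DNA damage signalling and repair were higher with those of replication: 16 of 19 in both pairs and 0 lower, with medians of 2.64 and 2.93, and 14 without the unplucked control array. The medians were 1.38 and 1.72 with normexp and quantile scaling, and 1.89 and 1.97 over the 10 members measured on all 4 arrays. Brip1, a helicase that binds BRCA1, went from -3.03 to 2.53 in the young pair and to 1.49 from below background in the control pair. Neil3, a DNA glycosylase, was not well above background without plucking and stood at 1.14 and 0.88 with it. It was at least 42.0-fold higher on average over the 2 pairs. Of 14 measured p53 targets, 2 were higher in both pairs, Pmaip1 (1.02 and 2.71) and Gadd45a and 0 were lower.

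Some genes with roles beyond cell division also went from near or below background to well above it. Foxi3, a forkhead factor of the hair placode and follicle, had levels of -2.64 and -3.11 without and 1.76 and 1.23 with plucking, the same difference in both pairs within 0.06. Chst2, a carbohydrate sulfotransferase, went from -1.93 to 2.84 and from -3.35 to 2.49. Of named genes seen on both plucked arrays and neither unplucked array, the 6 with the largest lower bounds were Pla2g7, Shcbp1, Aspm, Col27a1, E2f8 and Pmch. This ranking takes in genes of cell division, among them E2f8. Pla2g7, which encodes the platelet-activating factor acetylhydrolase, was at least 53.2-fold higher on average over the 2 pairs. The same bound was 42.5-fold for Col27a1, a fibrillar collagen, and 56.9-fold for Pmch, the precursor of melanin-concentrating hormone.

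The surface and secreted genes of the bulge were lower. Of 26, 15 were at least 2-fold lower in both pairs and 0 higher, with medians of -1.61 and -1.76, and 16 were lower with the unplucked control array left out. All 26 were well above background on all 4 arrays. The summed signal of the list was 1897 and 1555 times the 75th percentile signal in unplucked and 600.6 and 654.7 in plucked cells. Cd34, the marker by which the cells were sorted, had levels of 6.46 and 6.69 without and 3.62 and 4.39 with plucking (mean -2.57 ± 0.46 SE, limma adjusted p = 0.276), although plucked and unplucked cells were gated alike as high for the protein.

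Fgf18, the fibroblast growth factor that holds follicles in telogen, had the largest lower value of all genes measured on all 4 arrays, by the smaller of its 2 pair differences. Its level was 2.88 and 2.48 in unplucked and -2.65 and -4.19 in plucked cells, a mean difference of -6.10 ± 1.02 (SE, n = 2 pairs; limma adjusted p = 0.260). The probe lies at chr11:33017440-33017499 (mm9). Angptl7, a secreted angiopoietin-like protein, went from 4.95 to 0.84 and from 5.12 to -0.24. Krt24, a keratin of resting bulge cells, went from 5.26 to 2.00 and from 4.51 to 1.26, a difference of -3.26 and -3.25. All these genes were lower on both plucked arrays than on either unplucked one.

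S100a4, a small calcium-binding protein, was at 7.34 and 6.86 without and 3.66 and 3.82 with plucking. Ccn2, the matricellular protein CTGF, went from 6.84 to 4.01 and from 7.53 to 4.70, and the latent TGF-beta binding protein Ltbp2 from 5.05 to 0.97 and from 3.82 to 1.40. Cxcl14, a chemokine, differed by -2.51 and -2.35. Smaller values were seen in the Wnt inhibitors Dkk3 (-1.91 and -1.59) and Wif1 (-1.61 and -3.33) and in Krt15 (-0.97 and -0.98), just short of 2-fold. Lgr5, the receptor of R-spondins, was among the members that did not pass 2-fold in both (4.09 and 5.43 without, 4.10 and 4.73 with plucking), as was the sorting marker Itga6 (4.54 and 4.28 without, 4.19 and 4.48 with plucking).

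Of 14 transcription factors of the bulge, 1 was higher and 1 lower in both pairs, shares near those of all genes, and the medians were -0.23 and 0.11. Sox9 had levels of 4.91 and 5.46 without and 4.73 and 5.66 with plucking, Lhx2 of 6.43 and 6.45 against 6.15 and 6.40, and Tbx1 of 6.15 and 6.58 against 6.05 and 6.85. Nfatc1, a factor that keeps bulge cells quiescent, differed by -0.42 and -0.25. Gata6 (-1.16 and -1.68) was the lower one and Gli1 (2.10 and 2.11) the higher one. Both counts were 1 without the unplucked control array too. Whether this list differed from the surface genes was not tested.

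**Figure D3:**
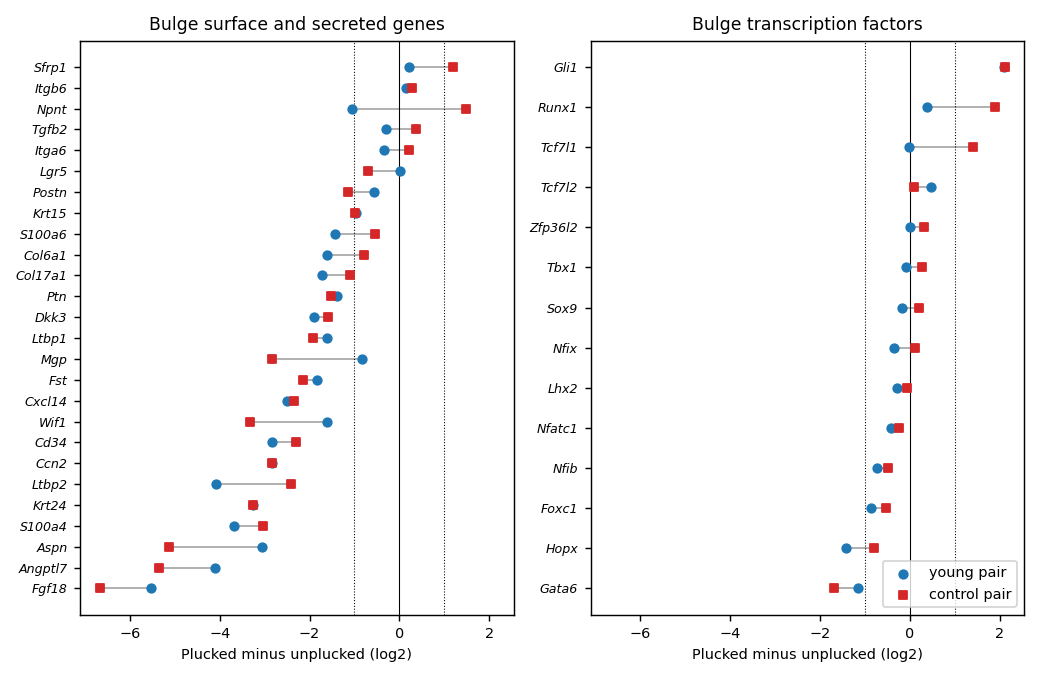
Plucking difference (log2 plucked minus unplucked) of each bulge surface or secreted gene (left) and each bulge transcription factor (right) in the young (circles) and the control pair (squares); dotted lines mark 2-fold. On the left 15 of 26 genes lie beyond the lower line in both pairs, and on the right most of the 14 lie between the lines.

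The 12 genes with the largest shared lower values, all measured on all 4 arrays, were Fgf18, Myoc, Pdzrn4, Adra2a, Angptl7, Sncg, Tent5b, Camk2n1, Dapk2, Krt24, Dusp23 and Col8a2. Adra2a, the alpha-2A adrenergic receptor, was lower by the same amount in both pairs, 4.12 to -0.28 and 4.61 to 0.40 (mean -4.31 ± 0.39 SE, limma adjusted p = 0.234, and 0.0397 with 1 plucking term for 4 pairs). Myoc, the secreted glycoprotein myocilin, went from 3.15 to -1.36 and from 1.72 to -3.53. Col8a2, a short-chain collagen, went from 4.44 to 0.58 and from 5.54 to 2.30. Camk2n1, an inhibitor of CaM kinase II, differed by -3.97 and -3.33.

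Genes seen on both unplucked arrays and on neither plucked array were dimmer. The 6 with the largest bounds were Arhgap45, Phyhipl, Dzank1, Dact1, Sorcs3 and Smad9. Dact1, a regulator of Wnt and planar polarity signalling, was at -1.51 and -0.03 without plucking. Its bounds were -2.62 and -4.67, at least 12.5-fold lower on average over the 2 pairs. Smad9, which carries BMP signals, was at -1.53 and -2.16 and at least 6.7-fold lower on average over the 2 pairs.

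Targets of BMP signalling were lower. Of 8 measured, 5 were at least 2-fold lower in both pairs and 0 higher, with medians of -1.50 and -2.47. With both plucked arrays against the unplucked young array alone, 2 of the 8 were lower, so the count depends on the unplucked array used. That comparison also crosses the pairs, with their age, tamoxifen and slide, and which of these moved the count was not tested. Id2, an inhibitor of basic helix-loop-helix factors that BMP induces, had levels of 1.98 and 2.34 without and -0.59 and -0.29 with plucking (mean -2.60 ± 0.36 SE, limma adjusted p = 0.240, and 0.0449 with 1 plucking term for 4 pairs). Id1 went from 2.34 to 0.44 and from 4.30 to 2.34, and Id3 from 2.51 to 1.09 and from 3.05 to 0.33. In Id1 the plucked control array lay level with the unplucked young array, and the order holds only within pairs. The inhibitory Smad7 (-1.59 and -2.30) and Msx2 (-1.58 and -1.03) were lower too, and Id4 was not (0.58 and 0.61).

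Of 17 ligands, receptors and antagonists of BMP, 4 were lower in both pairs and 0 higher: Smad9 and 3 secreted antagonists. Grem1 (gremlin) went from 5.85 to 3.92 and from 6.35 to 4.33, Nog (noggin) from 1.16 to -1.22 and from -0.66 to -3.0, and Fst (follistatin) from 2.83 to 1.01 and from 2.97 to 0.83. The receptors Bmpr1a (differences -0.28 and 1.36) and Bmpr2 (-0.25 and -1.23) had no shared difference, and the signal carrier Smad1 differed by 0.71 and 0.77. Bmp2 was lower in the young pair alone, from 1.5 to -1.75, against -0.98 to -1.14 in the control pair.

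Of 21 Wnt ligands and Frizzled receptors, 1 was higher and 2 lower in both pairs, and 1 and 5 without the unplucked control array. Among all genes 6.97% were higher and 4.22% lower in both pairs. Without the unplucked control array 1954 of 22697 were higher and 1762 lower. The ligand Wnt7b was higher (1.45 and 3.35). The receptors Fzd9 (1.53 and 0.50 without plucking, -2.11 and not well above background with it) and Fzd5 (-2.92 and -1.59) were lower. Of 14 Wnt antagonists and feedback targets, 4 were lower and 0 higher in both pairs, against 5 and 0 without the unplucked control array. Axin2, a feedback target of the canonical pathway, went from 0.98 to -0.28 and from 1.23 to -0.76, and the factor Lef1 from -0.99 to -3.72 and from -2.48 to below background. The other two were Dkk3 and Wif1.

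In the hedgehog pathway 3 of 13 genes were higher in both pairs and 0 lower, and 5 were higher without the unplucked control array, with 1 lower. Gli1, the transcription factor that is also the pathway's standard target, went from 1.24 to 3.35 and from 0.99 to 3.1 (mean 2.11 ± 0.37 SE, limma adjusted p = 0.270). Gli2 went from 0.62 to 2.32 and from 0.59 to 2.04. Both genes had almost the same difference in the 2 pairs. The ligand gene Shh was not well above background on any of the 4 arrays, and Dhh went from below background to -1.52 and -1.34. Ptch1, the receptor and a further target, differed by 2.42 in the young and 0.58 in the control pair.

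Counts in the TGF-beta, growth factor and Notch lists are to be read against 6.97% higher and 4.22% lower of all genes. Of 18 TGF-beta and activin genes, 2 were higher, Smad3 (-0.03 and -0.07 without, 1.80 and 2.33 with plucking) and the activin subunit Inhba. Of 18 FGF and EGF genes, the ligand Ereg was higher, and Fgf18, Fgf1 (5.68 and 5.86 to 2.92 and 3.92) and the feedback inhibitor Spry1 (-1.56 and -2.08) were lower. Of 11 Notch genes, the target Hes1 (2.37 and 1.32), the feedback regulator Nrarp (1.77 and 3.69) and the receptor Notch3 (1.33 and 2.95) were higher, and the ligand Dll1 (-1.89 and -3.44) and the target Hey1 (-1.40 and -1.70) were lower.

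Genes of the hair lineage and the keratins showed no single direction. Of 15 hair germ and anagen genes, Foxi3 and Cux1 were higher and Msx2, Lef1 and Dlx3 (-2.24 and -3.01) lower. Of 11 keratins, Krt17 went from 5.39 to 6.46 and from 5.42 to 6.64 and Krt79 differed by 1.02 and 1.40, whereas Krt6a went from 3.20 to 0.96 and from 3.57 to 0.02. Krt6b and Krt80 were lower as well. Without the unplucked control array 1 of the keratins was higher and 4 were lower. Krt6a and Krt6b mark the inner bulge layer next to the club hair as well as wounded epidermis. Of 10 genes of wounded or migrating keratinocytes 3 were lower and 0 higher, with Il33 (-1.37 and -1.48) beside Krt6a and Krt6b, and 5 were lower without the unplucked control array.

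Of 18 adhesion genes of the basement membrane, 2 were lower in both pairs and 0 higher, Col17a1 and Lamb3. Col17a1, the hemidesmosomal collagen that anchors HFSCs, had levels of 7.39 and 7.31 without and 5.67 and 6.22 with plucking, both plucked arrays below both unplucked ones (mean -1.41 ± 0.41 SE, limma adjusted p = 0.396). Lamb3, a laminin chain of the epidermal basement membrane, differed by -1.38 and -1.02. Itgb4, the partner of Itga6 in hemidesmosomes, differed by -1.61 and -0.72. Of 13 collagens, 3 were higher and 5 lower, and their medians had opposite signs in the 2 pairs (-1.13 and 0.56). Without the unplucked control array 3 were higher and 3 lower. Col6a2, Col12a1, Col5a2 and Col1a2 were lower beside Col8a2, and Col5a1 and Col14a1 were higher beside Col27a1.

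Markers of other parts of the epidermis gave few calls. Of 17 genes of epidermal differentiation, Flg was higher (2.31 and 1.29) and Grhl3 lower (-1.15 and -1.09). Without the unplucked control array 0 of these 17 were higher and 2 lower. Of 13 genes of the junctional zone, infundibulum and sebaceous gland, Lrig1, a negative regulator of growth factor receptors, went from 2.11 to 3.62 and from 2.77 to 4.15. Krt79 and Defb6 (1.63 and 2.07) were higher too, and Gata6 was lower. Without the unplucked control array 2 of these 13 were higher and 2 lower. Of 16 axon guidance genes, 2 were higher, Nrp2 (3.75 and 1.93) and Robo1, and 5 were lower, among them Sema3c (-1.80 and -1.55) and Unc5b (-2.33 and -2.30). Without the unplucked control array 3 of these 16 were lower.

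Of 15 genes of the circadian clock, 6 were lower in both pairs and 0 higher, with medians of -1.19 and -0.78, and 5 were lower without the unplucked control array. Cry2, a repressor of the clock, went from 3.27 to 1.65 and from 3.43 to 1.80, and Dbp, its standard output gene, from 4.83 to 3.08 and from 4.74 to 3.29. Tef, Nr1d1 and Bhlhe41 were lower too. The hours at which cells were collected were not given in the sources used here, and their part in these values was not tested. The CCAAT box was in 77.8% of the 18 clock promoters and TTTGAA in 0%.

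Of 21 immediate early and dissociation stress genes, 1 was higher and 9 were lower in both pairs. The Krüppel-like factor Klf4 went from 4.99 to 3.37 and from 5.53 to 3.39, the phosphatase Dusp1 from 4.28 to 2.96 and from 4.94 to 2.36, and Atf3 from -1.29 to -3.46 and from -0.32 to -3.18. Of the genes best known to be induced by tissue dissociation, Fos differed by 2.34 and -0.24, Jun by 0.68 and 0.00, and Egr1 by 1.54 and -0.15. Without the unplucked control array 4 of the list were higher and 7 lower. Of 16 glycolysis genes, Pgk1 was higher (1.02 and 1.63) and Pfkp lower, and of 9 measured interferon genes 2 were lower, among them Bst2 (-1.38 and -1.20).

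**Figure D4:**
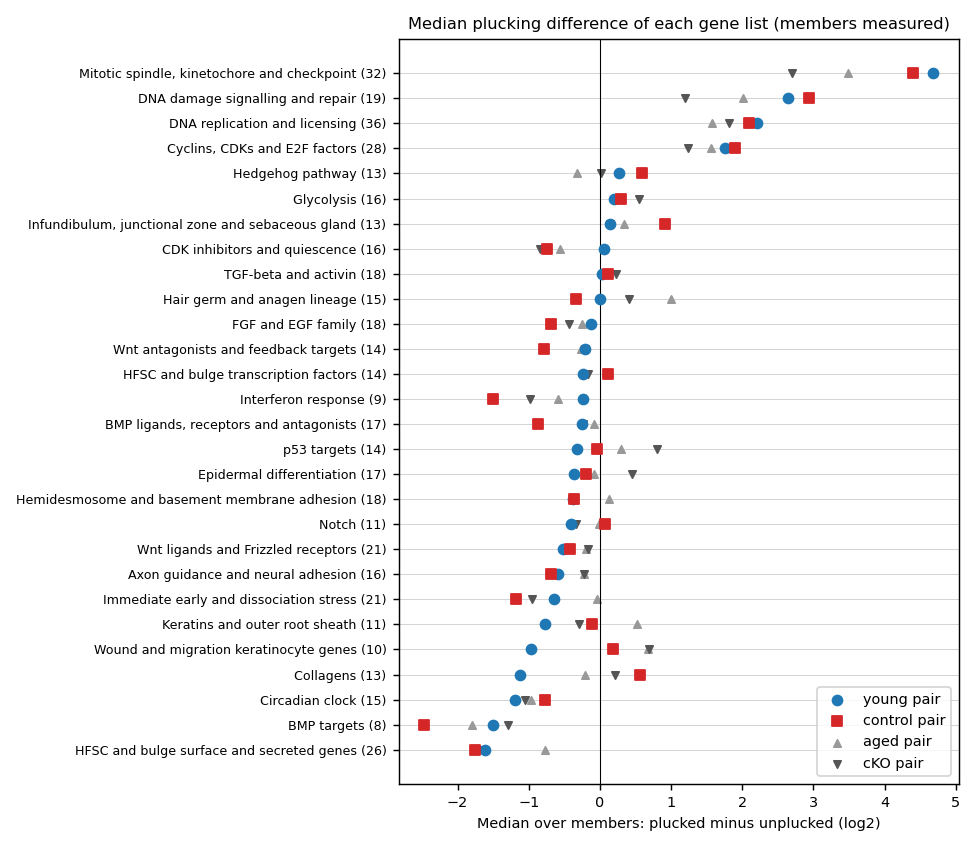
Median plucking difference (log2 plucked minus unplucked) over the measured members of each gene list, with the number of members in parentheses; circles and squares are the young and control pairs, triangles the aged and cKO pairs. Mitosis, repair, replication and cyclin lists lie highest in all 4 pairs, and bulge surface genes and BMP targets lowest in both healthy pairs.

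The 2 healthy pairs also differed. Of the 22521 genes, 816 (3.62%) were at least 2-fold apart in opposite directions, 436 (1.94%) higher in the young and lower in the control pair and 380 (1.69%) the other way. limma called 0 genes for the difference between the pairs (0%, smallest adjusted p 0.957, 1315 genes or 5.17% at an unadjusted p under 0.05, 1 residual degree of freedom). The unplucked arrays were at least 2-fold apart in 753 of the 816 genes (92.3%) and the plucked arrays in 437 (53.6%), against 36% and 17.8% of all measured genes, a comparison that the choice of these genes partly fixes. Only 329 of the 816 (40.3%) were well above background on all 4 arrays.

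The 6 genes with the largest opposite differences were Ppp2r2c, Ctla2a, Cep135, Slc22a3, Hoxd4 and Klhl10. Ppp2r2c, a regulatory subunit of protein phosphatase 2A, was at 1.11 in unplucked young cells and not well above background in plucked ones, and not well above background in unplucked and at -0.52 in plucked control cells. Cep135, a centriole protein, went from 2.36 to -1.62 in the young pair and from below background to -0.95 in the control pair. In both genes the unplucked young array was the highest of the 4.

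**Figure D5:**
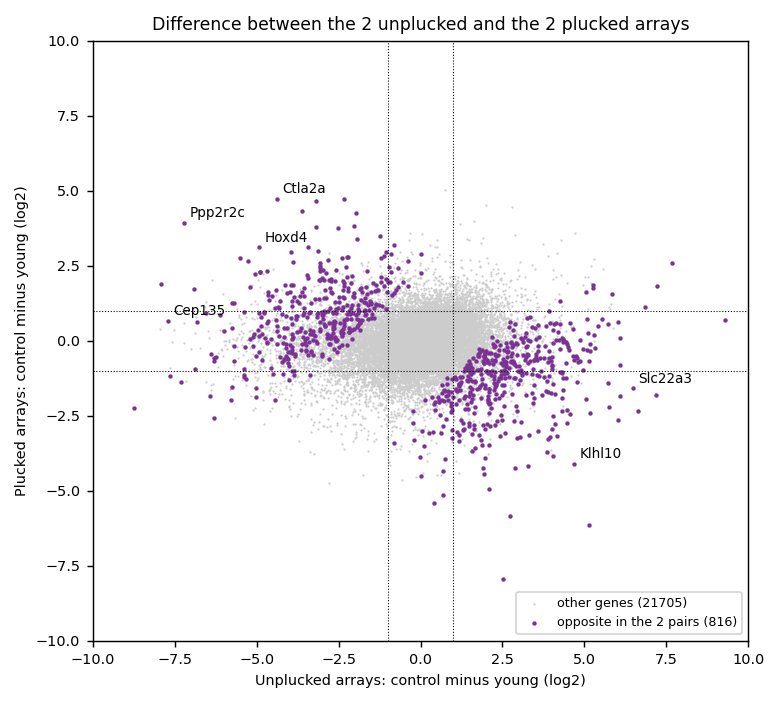
Difference between the control and the young array (log2) among unplucked (horizontal) and plucked (vertical) cells for each gene, with the 816 genes of opposite plucking differences in purple and the 6 named ones labelled; dotted lines mark 2-fold. The purple points spread along the horizontal axis, with medians of the absolute difference of 2.75 between unplucked and 1.07 between plucked arrays.

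Some genes stood apart in 1 pair and were within 1.2-fold in the other, with all 4 arrays above background. In the young pair the largest such differences were in Bmp2, Cebpd, Tas1r3 and Tnnt2, which were lower, and in Hirip3 and Kprp, which were higher. Cebpd, a transcription factor of the C/EBP family, went from 1.72 to -1.48 there and from -0.31 to -0.08 in the control pair. In the control pair the largest such differences were in Jagn1, Zdhhc1, Ttc12, Mia and Psapl1, which were higher, and in Zrsr1, which was lower. Jagn1, a protein of the endoplasmic reticulum, was at 2.56 and 2.79 in the young pair and went from -3.63 to 2.38 in the control pair. In each of the 6 genes named for the control pair the unplucked control array was the one far from the other 3, or, in Zrsr1, the plucked control array was.

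The aged and cKO pairs showed part of the same pattern. Of the 1362 genes higher in both healthy pairs and measured in all 4 pairs, 581 (42.7%) were at least 2-fold higher in both the aged and the cKO pair and 26 (1.91%) lower in both, where 6.97% of all 20579 genes were higher and 4.09% lower. Of 814 lower genes 265 (32.6%) were lower and 16 (1.97%) higher. Read the other way, 40.5% of the genes higher and 31.5% of those lower in both the aged and the cKO pair were so in both healthy pairs. The medians of the higher genes were 1.78 and 2.47 in the healthy pairs, which the selection raised, and 1.24 and 1.47 in the aged and cKO pairs.

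Mitotic genes had medians of 3.48 in the aged and 2.70 in the cKO pair, and bulge surface genes of -0.77 and -1.66. Fgf18 differed by -0.77 in the aged and -4.54 in the cKO pair. limma called 0 of 25426 genes for a difference between the healthy and the other 2 pairs (0%, smallest adjusted p 0.999, 1145 genes or 4.5% at an unadjusted p under 0.05), so no gene was shown to respond differently. Among genes with a symbol the smallest unadjusted p, 0.000127, was that of Cfap69, a protein of cilia and flagella. It had differences of 3.82 and 4.51 in the healthy pairs, from below background, and of -3.15 and -3.08 in the aged and cKO pairs. The plucked aged array and both cKO arrays were not well above background for Cfap69, so the -3.08 compares dim signals. Serpinb9, Hyal3, Lrat, Ctss and Ska1 followed in that direction, and Nxph3, Kdelr3, Rcor2, Epm2a and Oxld1 in the other, all with an adjusted p of 0.999. Hyal3 and Ctss were too dim to be measured in both healthy pairs.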

How the data were processed

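Each of the 12 samples was hybridised to an Agilent mouse array in 1 colour (Cy3), and the deposited scanner files hold spot intensities that Agilent Feature Extraction had background-subtracted, per the file headers, beside flags for signal well above background. Log2 of the processed intensity minus the 75th percentile of the array was computed here. The authors' deposited value table holds log2 values, which matched these after each probe was centred over the 12 arrays (r of at least 0.9999). Its column medians on the 4 arrays were 0.02, -0.15, -0.02 and -0.2 (young, young plucked, control, control plucked). It served as an alternative, and how its centre was chosen stays unknown. The well above background calls are the scanner software's, per the file headers. Control spots and outlier spots (129 to 162 an array) were left out, no spot was saturated, and spots of a probe were averaged. Of 55681 probes, 28076 took a name through a RefSeq accession and 27605 kept the file's name, giving 34737 genes, each read by its probe with the highest mean over all arrays. Among called genes with more than 1 measured probe (770), 14 had a probe at least 2-fold the other way.

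A probe not well above background was replaced for lower bounds ("at least N-fold") by the higher of its own value and the lowest level of any probe well above background on that array. Fold bounds on average over the 2 pairs come from the mean of the 2 log2 bounds, so the bound of 1 pair can be smaller. limma 3.58.1 (R 4.3.3) was fitted to the log2 values of the 8 HFSC arrays, with Benjamini-Hochberg adjustment, for genes well above background on at least 2 of them; it was tested on simulated data first. Tables and figures were made with Python 3.11.15, pandas 2.3.3, numpy 2.4.6 and matplotlib 3.10.9. Errors given as SE are limma's from the fit of the 8 HFSC arrays. They also hold the gap between the aged and cKO pairs and are not the spread of the 2 healthy pairs alone. Every group is 1 sample, and where nothing says that samples came from separate animals, a p-value covers just the variation among the arrays at hand, some of which may be technical. The number of arrays limits the precision.

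Genes were named by rule: the 12 higher and 12 lower with the largest smaller-of-2 difference among genes bright on all 4 arrays, the 6 with the largest bounds each way, the 6 with the largest opposite differences, the 6 for each pair that were within 1.2-fold in the other, list members at least 2-fold apart in both pairs or standing for their list, and up to 6 each way with the smallest p against the aged and cKO pairs, leaving out clones and predicted genes. A few genes that the rule names are not reported here. The comparison groups and gene lists were chosen with earlier results of these data known, and some genes stand in more than 1 list. Promoters came from RefSeq (GRCm38.p6), for 11722 of 22521 genes. Alternatives covered background correction, scaling, probe choice, filters, fold thresholds, the fit and leaving out pairs or an array.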

Additional observations from a re-analysis of the deposited data

Results flagged for a closer look

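The 2 healthy pairs went at least 2-fold in opposite directions in 816 genes, and limma's test of the difference called 0 of them. Among these, the control pair's difference exceeded that of the young pair by 11.1 on the log2 scale in Ppp2r2c, 9.10 in Ctla2a, 8.38 in Cep135 and 8.05 in Hoxd4. The same quantity was -8.05 in Slc22a3 and -8.79 in Klhl10. In each of these 6 genes 1 unplucked array was not well above background, and in Ppp2r2c, Ctla2a, Hoxd4 and Klhl10 a plucked array was not either, so these values rest partly on dim signals. With dim sides at their background limit the young and control differences were -5.56 and 4.55 in Ppp2r2c, and 1.29 and -3.72 in Klhl10. A further 42 genes were at least 2-fold apart one way in both healthy pairs and the other way in both the aged and the cKO pair, among them Cnnm2, Dixdc1, Galm, Glb1, Irak3, Irf5, Mettl8, Nxph3, Serpinb9 and Wdr83. They were 26 (1.91%) of 1362 higher and 16 (1.97%) of 814 lower genes. Of all genes, 4.09% were lower and 6.97% higher in both the aged and the cKO pair. In Galm, Irak3, Irf5, Mettl8 and Serpinb9 at least 1 unplucked healthy array was not well above background, so their values rest partly on dim signals. limma's test of healthy against aged and cKO pairs called 0 of the 42 genes too.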

How the results depend on the processing

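No paired analysis was possible because the groups compared share fewer than 2 replicate numbers, each holding a single array; the pairing by mouse type is a term of every fit of the 8 arrays. The count of genes limma called for plucking was 0 with every alternative tried except the fit with 1 plucking term for all 4 pairs (127). The 2521 genes at least 2-fold apart in both pairs became 1092 after normexp correction with quantile scaling, 4949 at 1.5-fold, 759 at 4-fold and 1582 with all 4 arrays well above background. Leaving out a pair or the unplucked control array, chosen after seeing the data, gave 3716 to 10496. Fewer arrays then had to meet the rule, and without the unplucked control array both differences share the unplucked young array; which of these moved the count was not tested. The 816 opposite genes became 92 with normexp and quantile scaling, 1974 at 1.5-fold, 128 at 4-fold, 329 with all 4 arrays well above background and 1278 with no filter. Median centring, the mean over probes and the authors' values moved neither count by over 1.5 times, though centring moved the share of higher among the 2521 from 62.3% to 55%. Btg1 was the only named gene to reverse, at 0.36 as a mean over probes, and the cause was not tested. Of 216 named genes called in both pairs, 210 stayed called with median centring, 204 with the mean over probes, 166 with normexp and 216 with the authors' values. The difference between the healthy pairs could not be fitted without the aged or the cKO pair, since no residual degree of freedom was left. A large share of spots on each array was not well above background, which limits fold changes of dim genes to bounds.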
